A study of Mus musculus with 2 samples.

Results

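Tubulins are the building blocks of microtubules, and 10 tubulin genes were followed here through day 2.5 mouse gastruloids: 3 α-tubulin genes (Tuba1a, Tuba1b, Tuba1c), 6 β-tubulin genes (Tubb2a, Tubb2b, Tubb3, Tubb4b, Tubb5, Tubb6) and the γ-tubulin gene Tubg1. They were chosen by symbol from the 32285 genes of the count tables, and all 10 were present. Gastruloids are aggregates of embryonic stem cells that begin to lay out a body axis in culture. Aggregates of 300 cells of the mouse embryonic stem cell line R1, either wild type or labelled as Sp5 and Sp8 double mutant, were exposed to CHIR, which blocks GSK3 and so switches on Wnt signalling, at 3 µM from day 2 until collection 12 hours later. The title of the series links SP5 and SP8 to primary cilia, whose shafts are built from microtubules. Both groups thus had the same treatment and age, and no untreated group is among the samples. Each genotype has 1 single-cell RNA library, so there is no replicate check of any difference, no test was made, and every interval below is a 95% interval for counting error only.

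An α- and a β-tubulin form the dimer that polymerises into microtubules, while γ-tubulin sits in the ring complex that starts them. The isotypes of one family differ little in their bodies and most in their tails, which carry many glutamates and are the site of enzymes that add further glutamates. TUBB3 and TUBB2B are known from neurons, and their genes serve as markers of young neurons or neural tissue. Tubulin mRNAs are also under autoregulation: TTC5 reads the first amino acids of a nascent α- or β-tubulin chain and brings in the CCR4-NOT complex, which degrades the mRNA.

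The starts of the α and β coding sequences are shown because they are what TTC5 reads once translated. The start of the γ gene Tubg1 is set beside them for comparison only. The capitals mark the first 12 bases.
Tuba1a start: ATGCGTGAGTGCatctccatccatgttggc
Tubb5 start: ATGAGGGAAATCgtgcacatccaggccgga
Tubb3 start: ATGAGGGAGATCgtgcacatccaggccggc
Tubb2b start: ATGCGAGAGATCgtgcacattcaggcgggc
Tubg1 start: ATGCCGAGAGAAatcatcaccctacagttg

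The last 63 coding bases of 4 β genes, stop codon included, are shown because the β isotypes exchanged below differ there. The capitals mark in-frame GAA and GAG codons, which encode glutamate. Among the 21 codons Tubb4b has 10 of them, Tubb5 has 9, and Tubb3 and Tubb2b have 8 each.
Tubb5 end: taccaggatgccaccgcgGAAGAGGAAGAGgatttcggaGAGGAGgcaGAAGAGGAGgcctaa
Tubb4b end: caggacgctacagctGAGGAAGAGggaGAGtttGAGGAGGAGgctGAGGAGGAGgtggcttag
Tubb2b end: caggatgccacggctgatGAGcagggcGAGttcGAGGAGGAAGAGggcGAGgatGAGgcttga
Tubb3 end: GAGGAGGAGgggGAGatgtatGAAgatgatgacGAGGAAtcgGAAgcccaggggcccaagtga

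How far the counts can tell these genes apart depends on the last part of each transcript, since the libraries were made from 3′ ends. The coding sequences of Tuba1a and Tuba1b are 98.3% identical, and those of Tubb2a and Tubb2b 96.5%. Of the 90-base windows in the last 500 bases of the transcripts, 50.4% of those of Tuba1a, 46.7% of those of Tuba1b and 65.0% of those of Tuba1c occur unchanged in one of the other listed genes, so the split of α counts among these genes is uncertain. With genes outside the list counted as well, the share is 60.1% for Tuba1b. For Tubb2a 25.5% of windows occur in Tubb2b. Tubb4b shares 12.7% of its windows with Gm16165 and Tubb4b-ps1, and the other 5 genes share 0%. How reads that match several genes were counted is not given in the sources used here. The effect of that choice on the level of α against β genes was not tested. The genes lie on several chromosomes (GENCODE M21, GRCm38): Tuba1b (98931425 to 98934565) and Tuba1a (98949837 to 98953703) on the minus strand and Tuba1c (99029891 to 99038110) on the plus strand of chromosome 15; Tubb2a (34074274 to 34078007) and Tubb2b (34126748 to 34130466) on the minus strand of chromosome 13. Tubb3 lies on chromosome 8 (123411424 to 123422015, plus strand), Tubb4b on chromosome 2 (25222160 to 25224702, minus), Tubb5 on chromosome 17 (35833921 to 35838306, minus) and Tubg1 on chromosome 11 (101119938 to 101126419, plus). Tuba1b and Tubb4b overlap the antisense genes Gm41396 and Fam166a, and the strand setting of the counting is not given in the sources used here.

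The promoters of Tubb3 and Tuba1a are shown because these genes rise together in neural-like cells below and factors of the Sp family are known to bind GC boxes. Each spans 250 bases before to 50 after the start (RefSeq, GRCm38.p6), Tubb3 on the plus strand of chr8:123411303-123411602 and Tuba1a on the minus strand of chr15:98953452-98953751. The capitals mark GGGCGG or its reverse complement CCGCCC (GC box) and CCAAT or its reverse complement ATTGG, which do not overlap there.
Tubb3 promoter: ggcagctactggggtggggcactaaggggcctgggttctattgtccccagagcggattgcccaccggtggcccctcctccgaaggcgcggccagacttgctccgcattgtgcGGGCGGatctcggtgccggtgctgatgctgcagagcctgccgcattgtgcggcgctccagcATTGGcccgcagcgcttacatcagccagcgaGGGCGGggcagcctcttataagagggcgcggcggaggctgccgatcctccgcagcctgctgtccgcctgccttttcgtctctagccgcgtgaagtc
Tuba1a promoter: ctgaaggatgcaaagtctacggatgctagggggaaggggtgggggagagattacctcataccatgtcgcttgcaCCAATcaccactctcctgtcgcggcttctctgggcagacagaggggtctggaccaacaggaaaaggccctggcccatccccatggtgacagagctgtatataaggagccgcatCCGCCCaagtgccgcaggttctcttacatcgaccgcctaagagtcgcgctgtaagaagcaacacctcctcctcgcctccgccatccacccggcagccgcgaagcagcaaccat
The promoter table matched 7 of the 10 genes, all but Tubb2b, Tubb6 and Tubg1. Tuba1b, Tubb2a, Tubb3, Tubb4b and Tubb5 held 2 GC boxes each, Tuba1a held 1 and Tuba1c held 0. The CCAAT box occurred 5 times in Tubb4b, 2 times in Tubb5, 1 time each in Tuba1a, Tuba1c and Tubb3, and 0 times in Tuba1b and Tubb2a. Among all 32851 promoters of the table, 35.7% held a GC box and 37.4% a CCAAT box. A match describes the letters only and is not a measured binding site.

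The kept barcodes numbered 8707 in the library labelled WT and 10587 in the library labelled double mutant, with 97157331 and 97644169 UMIs (tagged molecules). The median cell held 10571 and 8637 UMIs, and 27 barcodes were kept in both libraries, against 13.6 expected if the 2 sets were independent. The targeted genes were higher in the library labelled double mutant: Sp5 was at 109.1 UMIs per 1000000 UMIs (CPM) in the library labelled WT and at 478.7 in the library labelled double mutant, and Sp8 was at 20.8 and 40.1 CPM. Counts of 3′ ends do not tell an edited allele that is still transcribed from an intact one, so these values do not settle the genotype. Differences between the libraries are therefore given by label, and none of them can be read as an effect of losing these factors. Cells were clustered without the tubulin genes. A cluster took a class name if at least 1 of the class's markers was among its 10 leading genes, no other list had more there, and most of the class's markers were 1.5-fold up. Streak-like cells (cluster 2, 1447 and 4030 cells, led by Mixl1, Gsc, Eomes, Fgf8 and T) had 7 of 12 primitive streak markers up, and neural-like cells (cluster 5, 249 and 235 cells, led by Ebf3, Pou3f2, Insm1 and Sox1) had 7 of 12 neural and 8 of 10 neuron markers up. Naive-like cells (cluster 7, 58 in each library) had 10 of 12 naive pluripotency markers up, but also 6 of 7 trophoblast markers, and Rhox6 and Rhox9 lead them. Their naive markers summed to 3825 and 3634 CPM, against 173 and 176 CPM in streak-like cells. Cluster 0 (27.7% and 30.7% of cells, 3 of 12 naive markers up) and cluster 3 (10.3% and 1.95%, 3 of 12 streak markers up, led by Cdx2) stayed unnamed.

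Tubb5 supplied most tubulin transcripts in both libraries. Its level was 2678 CPM (2667 to 2688) in the library labelled WT and 2760 CPM (2749 to 2770) in the other. Counts of 3′ ends are per molecule and are not divided by gene length. The order of levels across genes, and the ratios of α to β below, hold for the counts as deposited, with the limit on shared reads given above. The α genes Tuba1b (832 and 882 CPM, in the same order of libraries) and Tuba1a (715 and 668 CPM) came next. They were followed by Tubb4b, a β-tubulin known from cilia, at 421 and 449 CPM. Tubb2b (148 and 141), Tubb3 (107 and 112), Tubb6 (94.1 and 104.3), Tuba1c (88.5 and 96.5) and Tubg1 (63.7 and 76.2) formed a low group, and Tubb2a was lowest at 10.6 and 9.2 CPM. The order of the 10 genes was the same in both libraries, and no interval of a gene overlapped that of its neighbour in the order.

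**Figure D1:**
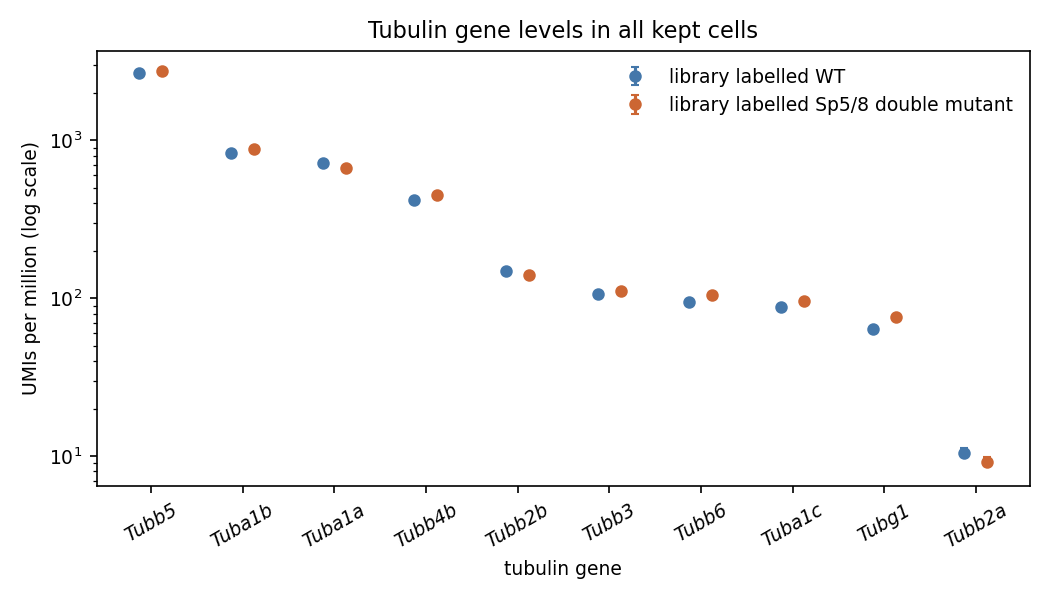
CPM (log axis) of the 10 tubulin genes in all kept cells of the 2 libraries; bars are 95% counting intervals, mostly smaller than the points. Tubb5 is highest at 2678 and 2760 CPM, and Tubb2a is lowest at 10.6 and 9.2 CPM.

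Other tubulin genes added little. Tuba4a was at 47.6 and 47.4 CPM and Tubb4a at 10.95 and 11.94 CPM. Tube1 (8.08 and 7.74 CPM) and Tubd1 (3.15 and 3.05 CPM), genes of the centriolar ε- and δ-tubulins, were lower. Tuba3a (1.17 and 1.28 CPM), the other γ-tubulin gene Tubg2 (0.669 and 0.676 CPM) and Tuba8 (0.278 and 0.277 CPM) were close to undetected. Tuba3b had 4 and 9 UMIs, Tubal3 0 and 2, and the platelet gene Tubb1 had 0 UMIs in both libraries. All α and β genes together made up 0.515% and 0.528% of UMIs, with 0.486 α UMIs (0.483 to 0.489) per β UMI in the library labelled WT and 0.473 (0.470 to 0.476) in the library labelled double mutant.

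Between the libraries the isotypes differed little. A gene counted as different if the log2 ratio (library labelled double mutant over library labelled WT) was 0.25 or more in size with an interval off 0, among the 7607 genes with a mean of at least 10 CPM. This rule called 3.13% of these genes higher and 4.67% lower. Of the 10 tubulin genes 9 reached that level (Tubb2a did not), and Tubg1 was the 1 gene called, with a log2 ratio of 0.26 (0.21 to 0.31). The median of the 9 was 0.08, against -0.02 for all 7607 genes. Tuba1a was lower (-0.10, -0.12 to -0.08) while Tuba1b was higher (0.08, 0.07 to 0.10). The share of Tuba1a among α UMIs was thus 42.5% (42.2 to 42.7) in the library labelled WT and 39.4% in the library labelled double mutant. Within clusters 0, 1 and 2 that share was 39.8% and 38.1%, 45.8% and 44.2%, and 38.9% and 36.8%. In the small clusters 6 (32.6% and 35.6%) and 8 (21.3% and 32.1%) it went the other way. Cluster 1 made up 37.4% and 22.2% of cells and cluster 2 16.6% and 38.1%. The part of this make-up in the share over all cells was not tested. Tuba1c (0.13), Tubb6 (0.15), Tubb4b (0.09), Tubb3 (0.06) and Tubb5 (0.04) lay slightly above 0, Tubb2b (-0.07) and Tubb2a (-0.19) below it.

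Tubg1 lies on chromosome 11, and cells in which that chromosome's share of UMIs was at or below 0.8 of the median made up 17.8% of the library labelled WT and 5.86% of the library labelled double mutant (of cells with at least 4000 UMIs). In the low cells Tubg1 was at 47.7 and 63.4 CPM, and in the other cells at 66.5 and 76.8 CPM. The low cells also differ in type: in cluster 3, led by Cdx2, 91.6% and 79.9% of cells were low. That cluster made up 10.3% and 1.95% of cells, and its part in these levels was not tested. Among the cells that were not low the log2 ratio of Tubg1 between the libraries was 0.21 (0.16 to 0.26), under the limit. It was also under the limit with the clusters at equal weight (0.24) and with each cell at the same weight (0.246). Within classes the ratio of Tubg1 was 0.20 (0.10 to 0.30) in streak-like and 0.37 (0.04 to 0.69) in neural-like cells. In naive-like cells, with 30 UMIs in each library, it was 0.12 (-0.66 to 0.90). None of the 9 or 10 tubulin genes measured passed a log2 ratio of 0.5 between the libraries within any of the 3 classes, that is 0 genes in each class and direction. Of all genes measured, 2.63% passed upwards and 3.48% downwards in naive-like, 0.238% and 0.305% in streak-like, and 2.04% and 3.5% in neural-like cells.

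The classes differed far more than the libraries. From streak-like to neural-like cells Tubb3 rose from 96.3 to 678 CPM in the library labelled WT and from 102.0 to 714 CPM in the library labelled double mutant, log2 ratios of 2.81 (2.71 to 2.92) and 2.81 (2.71 to 2.90). Tubb2b rose from 129 to 553 CPM and from 124 to 550 CPM, log2 ratios of 2.10 and 2.14. Tuba1a rose from 640 to 1203 CPM and from 623 to 1220 CPM, log2 ratios of 0.91 and 0.97. These were the 3 genes of 10 that passed a log2 ratio of 0.5 upwards in each library, as did 14.1% of all genes measured in the library labelled WT and 11.9% in the other. The neural-like values of each of the 3 genes lay outside the streak-like intervals in both libraries.

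Other isotypes were lower in neural-like cells. Tuba1c was at 94.0 CPM in streak-like and 47.9 CPM in neural-like cells of the library labelled WT, and at 98.7 and 61.0 CPM in the other, log2 ratios of -0.97 (-1.27 to -0.69) and -0.69 (-0.98 to -0.42). Tubb4b fell from 416 to 264 CPM and from 432 to 299 CPM (-0.65 and -0.53). These 2 passed the limit downwards in both libraries, as did 6.79% and 7.12% of all genes measured. In the library labelled double mutant Tubb4b was inside the limit with cells not low in chromosome 11 (-0.50, just under it) and with classes from marker counts (-0.49), and past it with doublets removed (-0.52). Tuba1b had log2 ratios of -0.30 and -0.23, inside the limit, and the most abundant gene, Tubb5, had ratios of -0.02 (-0.06 to 0.01) and 0.00 (-0.04 to 0.04). Tubb6 (-0.48 and -0.16), Tubg1 (0.09 and 0.26) and Tubb2a (0.36 and 0.42, from 31 and 21 neural-like UMIs) also stayed inside it.

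**Figure D2:**
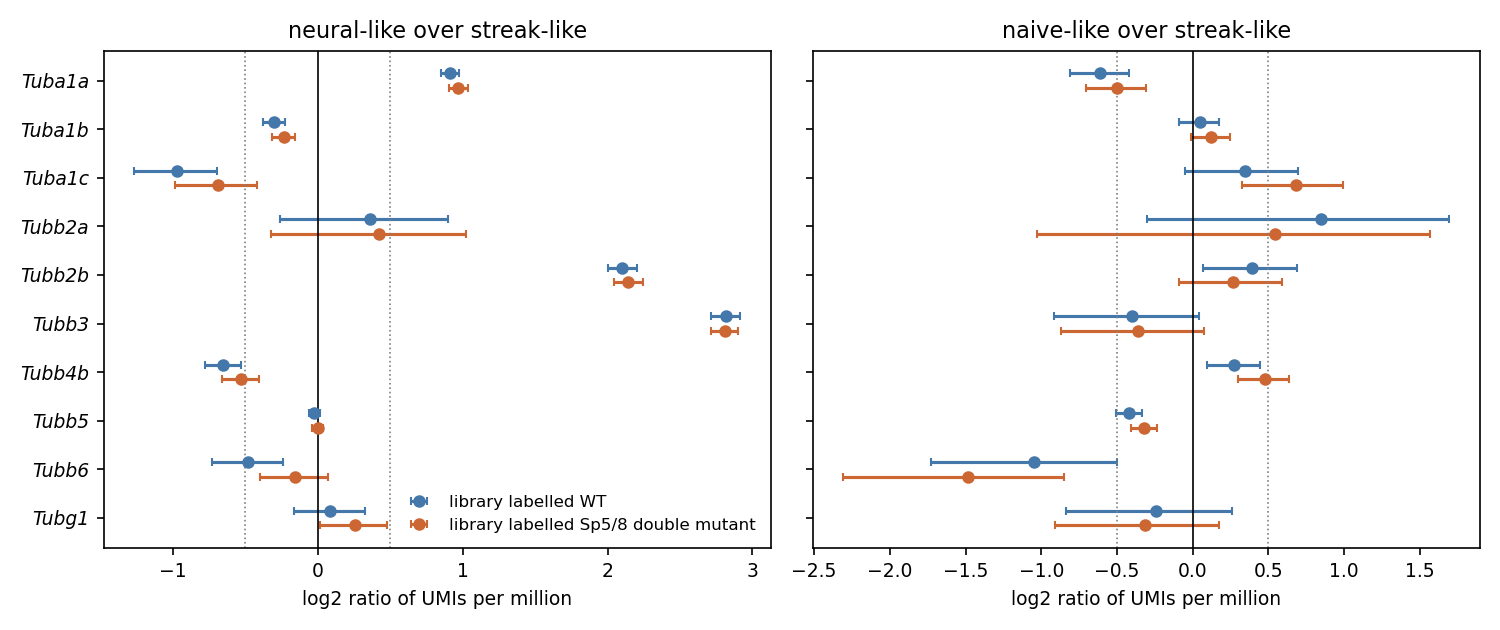
Log2 ratio of CPM between cell classes for each gene and library, with 95% counting intervals; the dotted lines mark the limit of 0.5. Tubb3, Tubb2b and Tuba1a lie to the right in neural-like over streak-like cells of both libraries, and Tubb6 lies lowest in naive-like over streak-like cells, at -1.05 and -1.49.

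The make-up of both pools differed between the classes. Tuba1a made up 38.9% of α UMIs in streak-like and 61.0% in neural-like cells of the library labelled WT, and 36.8% and 58.8% in the library labelled double mutant. The Tuba1b share went the other way, from 52.0% to 35.2% and from 54.3% to 37.6%. Within the β pool Tubb3 rose from 2.73% to 15.7% and from 2.81% to 15.8%, and Tubb2b from 3.65% to 12.8% and from 3.43% to 12.2%. The Tubb5 share went from 78.6% to 63.3% in the library labelled WT with its level at 2773 and 2727 CPM, in a β pool that went from 3528 to 4310 CPM. The number of α UMIs per β UMI was 0.466 in streak-like cells of both libraries and 0.457 and 0.460 in neural-like cells, with intervals that overlap.

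**Figure D3:**
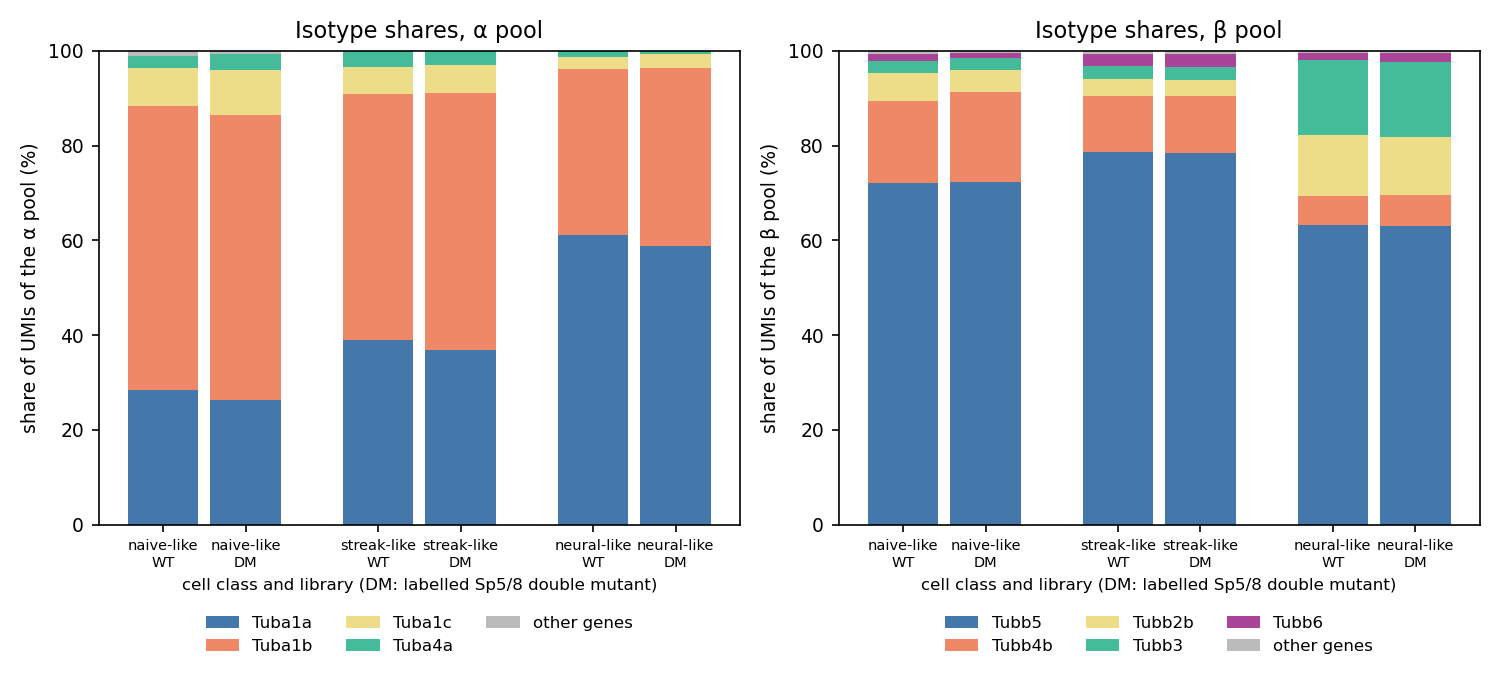
Share of α (left) and β (right) tubulin UMIs by gene, for 3 cell classes in the libraries labelled WT and Sp5/8 double mutant (DM). Tuba1a takes 61.0% and 58.8% of the α pool in neural-like cells, where Tubb3 takes 15.7% and 15.8% of the β pool.

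Within the neural-like cluster Tubb3 was highest in the cells with 2 or more of 10 neuron markers (Elavl3, Dcx, Stmn2 and others, no tubulin among them). The 10 markers summed to 599 and 482 CPM in neural-like cells and to 255 and 258 CPM in streak-like cells. A UMI of a marker therefore does not by itself identify a neuron. The neural-like cells were split by how many of these markers had a UMI after thinning to 5000 UMIs. This split was chosen after the data were seen. With 0 markers (52 and 63 cells) Tubb3 was at 91.8 CPM (68.2 to 121.1) and 138.9 CPM (109.1 to 174.4). The streak-like level of 96.3 CPM lay inside the first interval, and that of 102.0 CPM lay below the second. With 1 marker (82 and 69 cells) it was at 130 and 232 CPM. With 2 or more (96 and 79 cells) it reached 1585 and 1399 CPM, log2 ratios to the cells with 0 of 4.10 (3.70 to 4.55) and 3.32 (2.99 to 3.69). Tubb2b lay above its streak-like level already in the cells without a neuron marker (294 and 310 CPM) and reached 939 and 887 CPM in those with 2 or more. Tuba1a went from 869 to 1588 CPM in the library labelled WT, and from 1046 to 1304 CPM in the other, where its ratio of 0.32 stayed inside the limit. Thus 3 and 2 of the 10 genes passed upwards, beside 5.27% and 4.3% of all genes measured, and 0 passed downwards, beside 3.6% and 2.51%.

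In the cells with 2 or more neuron markers Tubb3 made up 27.4% and 25.7% of β UMIs, Tubb2b 16.2% and 16.3%, and Tubb5 50.8% and 51.7%. The β pool there reached 5786 and 5450 CPM, against 3376 and 3637 CPM in neural-like cells with 0 markers. The α pool was at 2314 and 2073 CPM, against 1725 and 1962 CPM. Hence there were 0.400 (0.380 to 0.421) and 0.380 (0.356 to 0.406) α UMIs per β UMI, against 0.511 and 0.540 in the cells with 0 markers. Median depth was 8272 and 7393 UMIs in the first and 10269 and 8415 UMIs in the second.

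**Figure D4:**
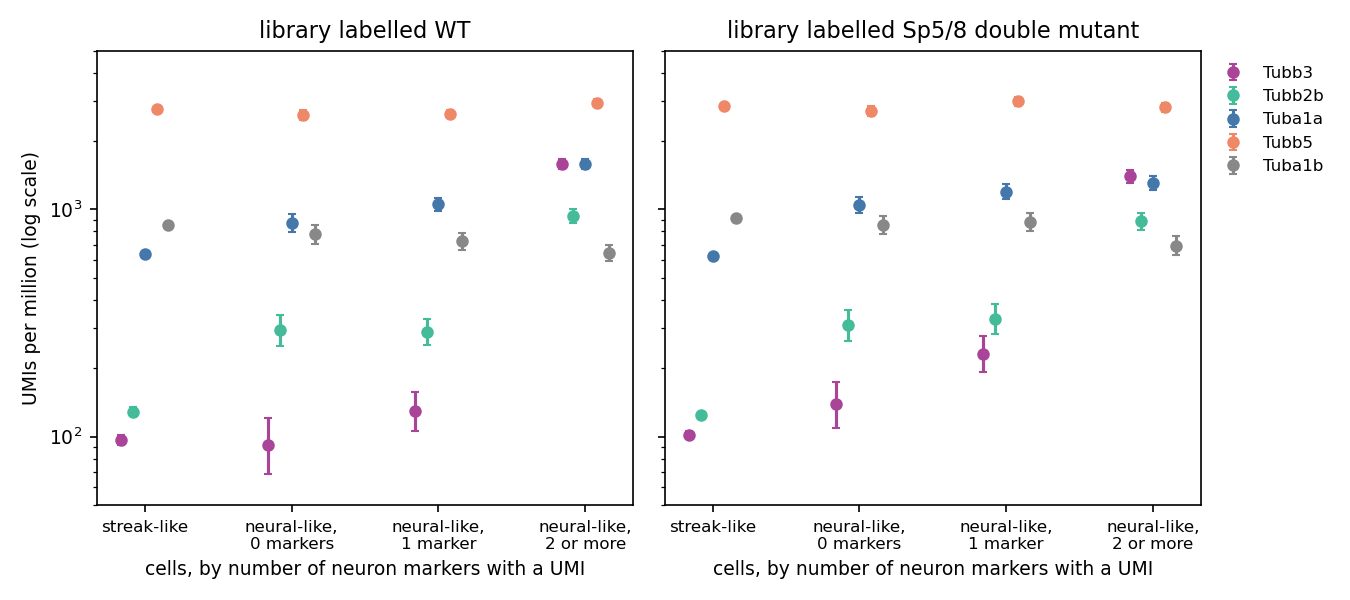
CPM (log axis) of 5 tubulin genes in streak-like cells and in neural-like cells with 0, 1 or at least 2 neuron markers, with 95% counting intervals. Tubb3 goes from 91.8 to 1585 CPM and from 138.9 to 1399 CPM over the neural-like cells, while Tubb5 lies between 2606 and 2992 CPM in them.

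Naive-like cells rest on 58 cells in each library, and their values are less firm. Tuba1a was at 419 and 439 CPM, below the 640 and 623 CPM of streak-like cells, log2 ratios of -0.61 (-0.81 to -0.42) and -0.50 (-0.70 to -0.31). Tubb6, a β-tubulin of many non-neural tissues, was at 44.5 and 34.3 CPM against 93.9 and 98.8 CPM, log2 ratios of -1.05 (-1.73 to -0.50) and -1.49 (-2.31 to -0.85), from 24 and 17 UMIs. These 2 genes passed downwards in both libraries, as did 11.5% and 11.3% of all genes measured. Upwards, where 12.9% and 11.7% of genes passed, 0 tubulin genes passed in the library labelled WT and Tuba1c passed in the other (157 against 98.7 CPM, log2 ratio 0.68). Tuba1a of the library labelled double mutant sat at the limit and was inside it under all 4 alternatives tried. Tubb5 was lower by less than the limit (-0.42 and -0.32). As shares of their pools Tuba1b led the α genes with 59.9% and 60.0%, Tuba1a had 28.4% and 26.4%, and Tubb4b had 17.4% and 19.0% of the β pool. The α UMIs per β UMI were 0.512 (0.469 to 0.558) and 0.528 (0.485 to 0.575).

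Against neural-like cells the naive-like cells had less Tubb3 (72.2 and 78.6 CPM, log2 ratios of -3.21 and -3.17), Tubb2b (-1.71 and -1.87) and Tuba1a (-1.52 and -1.47), and more Tuba1c (1.31 and 1.37) and Tubb4b (0.93 and 1.01). The share of genes that passed was 13.9% and 13.3% downwards and 12.9% and 12.2% upwards. Tubb6 (-1.33) and Tubg1 (-0.57) passed downwards in the library labelled double mutant as well. The trophoblast markers that ran with these cells summed to 704 and 274 CPM in them, with 0 and 1 of 7 at 0, against 42.7 and 45.6 CPM in streak-like cells, and their part in these values was not tested.

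Classes taken cell by cell, from 3 or more markers with a UMI after thinning, gave other cells: 444 and 404 naive-like, 976 and 2284 streak-like, and 42 and 19 neural-like. Tubb3 in neural-like over streak-like cells was then at 1.957 (1.68 to 2.21) and 2.58 (2.25 to 2.89), Tubb2b at 1.99 and 1.67, and Tuba1a at 0.50 and 0.54. Tuba1c was at -1.07 and -1.83, and Tubb4b at -0.40 and -0.49, inside the limit. The naive-like over streak-like calls of Tuba1a, Tubb6 and Tuba1c were lost with these cells, with log2 ratios of 0.07 and 0.01 for Tuba1a, -0.32 and -0.06 for Tubb6, and 0.21 for Tuba1c in the library labelled double mutant. Against neural-like cells, Tuba1a moved to -0.44 in the library labelled WT, inside the limit, and to -0.53 in the other. Tubb3 moved to -1.79 and -2.52, and Tubb4b to 0.48, inside the limit, and 0.72. The calls of Tubb3, Tubb2b (-1.81 and -1.57) and Tuba1c (1.22 and 2.04) against neural-like cells held in both libraries, while those of Tubb6 (0.09) and Tubg1 (0.12) in the library labelled double mutant were lost.

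Mitotic cells use microtubules for the spindle, and the isotypes were also followed over 5 groups of equal size, set over both libraries by the share of 43 mitotic genes (no tubulin) in a cell's UMIs. Tuba1c rose from group to group, from 46.9 to 58.8, 77.0, 102.7 and 134.6 CPM in the library labelled WT and from 54.1 to 68.0, 89.4, 111.6 and 146.6 CPM in the other. Its log2 ratio of the highest to the lowest group was 1.52 (1.41 to 1.64) and 1.44 (1.33 to 1.55). Tubb4b rose from 340 to 501 CPM and from 393 to 520 CPM, ratios of 0.56 and 0.41. A ratio of 0.5 upwards was passed by 3.27% and 3.48% of all genes measured and downwards by 1.56% and 1.19%. Tubb3 was lower in the highest group (-0.59 and -0.40), but without the neural-like cells its ratios were 0.27 (0.18 to 0.37) and 0.14, while those of Tuba1c were 1.48 and 1.40. The other 7 genes had ratios between -0.49 and 0.08, and the α to β ratio lay between 0.469 and 0.496 in the highest and lowest groups. Depth ran with the groups, from a median of 9024 to 12923 UMIs and from 7551 to 10444, and its part was not tested.

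**Figure D5:**
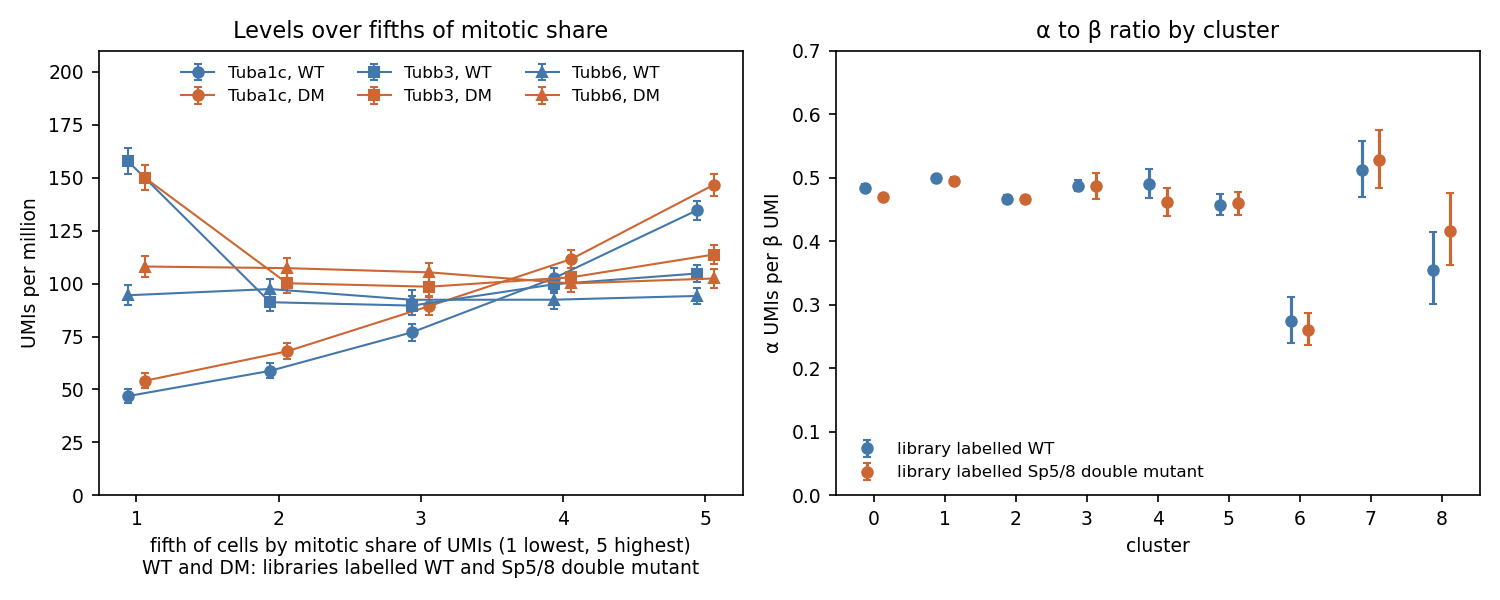
Left, CPM of Tuba1c, Tubb3 and Tubb6 over 5 groups of cells by mitotic share; right, α UMIs per β UMI by cluster; bars are 95% counting intervals. Tuba1c rises from 46.9 to 134.6 CPM and from 54.1 to 146.6 CPM, and cluster 6 lies lowest on the right at 0.274 and 0.261.

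Among the unnamed clusters, cluster 6 stood apart in its balance of α and β. Its 39 and 78 cells were led by Aqp3, Tbx3, Ddit3, Nupr1 and Pmaip1; Ddit3 and Nupr1 are known from stress responses. It held 0.274 (0.239 to 0.312) and 0.261 (0.236 to 0.287) α UMIs per β UMI, and clusters 0 to 5 and 7 held 0.457 to 0.528. Cluster 8, described below, lay between them at 0.354 (0.301 to 0.415) and 0.416 (0.362 to 0.476). In the library labelled WT the intervals of clusters 6 and 8 overlap. Tuba1a (311 and 341 CPM), Tuba1b (459 and 454 CPM) and Tubb4b (216 and 244 CPM) were low in cluster 6, whereas Tubb5 was at 2953 and 3147 CPM. Its median depth was 6521 and 6014 UMIs.

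Cluster 8 was extraembryonic-endoderm-like, with 17 and 21 cells and 8 of 10 such markers up, and had an α mix of its own. It also had 6 of 12 naive pluripotency, 4 of 7 trophoblast and 3 of 12 primitive streak markers up. Of its cells with at least 4000 UMIs, 56.25% and 28.6% were low in chromosome 11. Tuba1c was at 360 CPM (281 to 455) and 301 CPM (232 to 383), making up 34.3% and 21.3% of α UMIs, against 5.25% and 5.69% over all cells. Tubb3 was at 30.5 CPM (11.2 to 66.3) and 18.5 CPM (5.0 to 47.4), its lowest level of any cluster.

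The variance over the mean of UMIs was taken in cells thinned to 5000 UMIs (8296 and 9970 cells). This ratio is 1 for pure counting noise. It was 5.91 and 5.28 for Tubb3, 2.03 and 1.98 for Tubb2b, 1.53 and 1.47 for Tuba1a, and 1.01 to 1.45 for the other 7 genes. At the same relative spread between cells the ratio lies nearer 1 in a gene with fewer UMIs. The mean per thinned cell was 13.4 and 13.8 UMIs for Tubb5, 0.56 and 0.57 for Tubb3, and 0.056 and 0.047 for Tubb2a. The ratio thus does not rank genes of unlike level by how much cells differ, and a value near 1 does not show an even level. Barcodes of 1 to 100 UMIs, which hold free RNA, had Tubb3 at 112 and 111 CPM and Tubb5 at 2371 and 2504 CPM. Tubb3 was thus as high there as in streak-like cells, and the part of free RNA in its counts outside the cells with neuron markers was not tested.

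The genes whose levels ran most like those of Tubb3, Tubb2b, Tuba1a, Tubb6 and Tubb2a were taken by Pearson correlation. It was taken over 15 sums of cells (cluster by library, at least 50 cells each). These sums share libraries, and the values of Tubb3 and Tubb2b rest on the 2 neural-like sums. Tubb3 was most like Tubb2b (r = 0.953), Tmsb4x (0.923) and Gm1673 (0.875), and Tubb2b was most like Tagln3 (0.956), followed by Tubb3 and Tmsb4x. Tuba1a was most like Cited2 (0.944), Ap1s1 and Phc2, and Tubb6 most like Tspo (0.952), Pithd1 and Apeh. For Tubb2a the nearest were Ddx5 (0.900), Zwint and Pradc1. Tubb2a and Tubb6 had few UMIs in the naive-like sums. All genes named were picked as the nearest among genes with a mean of at least 10 CPM.

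The genes that work on tubulin were followed in the same way, as lists. Of the 17 genes of the γ-tubulin ring complex and its partners 15 could be compared between the libraries. Of these 0 were higher and 1, Tubgcp3, was lower (25.1 and 20.6 CPM, -0.29), beside 3.13% and 4.67% of all genes measured. The median of the 15 was -0.05. Mzt1, a small subunit of the ring, had -0.22. In neural-like over streak-like cells 0 of 15 passed in the library labelled WT, and 2 of 15 were higher in the other, Mzt1 (0.78) and Tubgcp2 (0.64), beside 14.1% and 11.9% of all genes higher and 6.79% and 7.12% lower. All 21 genes of tubulin folding (the chaperonin CCT, prefoldin and the tubulin cofactors) were measured. Between the libraries 0 passed in either direction (median -0.03), beside the same 3.13% and 4.67% of all genes. The nearest to the limit was Arl2, a GTPase that acts with the tubulin cofactors, at 0.24. From streak-like to neural-like cells 1 of the 21 was higher in the library labelled WT, Tbcd (0.79, and 0.04 in the other library), and 0 in the library labelled double mutant, beside the same 14.1% and 11.9%.

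Of 24 tubulin modifying enzymes 11 were measured, and 0 passed between the libraries, beside 3.13% of all genes higher and 4.67% lower. In neural-like over streak-like cells 1 of 10 was higher and 0 lower in the library labelled WT, and 1 of 10 was higher and 1 lower in the other, beside 14.1% and 11.9% of all genes higher and 6.79% and 7.12% lower. The gene called in the library labelled WT was Agtpbp1, which removes glutamates from tubulin tails (0.63, and -0.08 in the other library). Those called in the library labelled double mutant were Atat1, which acetylates α-tubulin (0.69, and 0.48 in the library labelled WT), and Tpgs2 (-0.56, and -0.15).

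Of the 4 autoregulation genes 3 were measured. Between the libraries 0 passed, beside 3.13% of all genes higher and 4.67% lower. In neural-like over streak-like cells 0 passed, beside 14.1% and 11.9% of all genes higher and 6.79% and 7.12% lower. Ttc5 was at 48.6 and 44.3 CPM. In naive-like over streak-like cells 1 of 3 was higher in each library, beside 12.9% and 11.7% of all genes: Cnot1, the scaffold of the CCR4-NOT complex, in the library labelled WT (0.72, and 0.41 in the other) and Ttc5 in the library labelled double mutant (0.61, and 0.37). In naive-like over neural-like cells 1 and 2 of 3 were higher, beside 12.9% and 12.2% of all genes: Cnot1 (0.93 and 0.66) in both and Ttc5 (0.68) in the library labelled double mutant. Among 27 microtubule binding genes 21 were compared between the libraries. Of these 0 were higher and 1, Stmn3, was lower (37.3 and 30.9 CPM, -0.27), beside 3.13% and 4.67% of all genes. In neural-like over streak-like cells 7 of 23 and 7 of 24 were higher and 1 and 0 lower, beside 14.1% and 11.9% of all genes higher and 6.79% and 7.12% lower, with medians of 0.01 and 0.17 beside 0.04 and 0.02 for all genes measured. Map1b, a neuronal microtubule-associated protein, led them with 2.50 and 2.35. It was followed by the tubulin-binding stathmins Stmn2 (1.501 and 0.902) and Stmn3 (1.04 and 0.99). Both stathmins and other genes of this list are also neuron markers of the split used above. Of the neuron markers measured, 5 of 6 and 6 of 7 were higher in the same contrast, so the count of this list is not independent of them.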

How the data were processed

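Single-cell RNA libraries (10x 3′ chemistry V3.1) were made from 2 samples. Raw UMI counts, deposited by the authors without normalization, cover 6794880 listed barcodes in each library. The submitters' processing notes name STAR 2.7.9a, STARsolo, Seurat 5.1.0 and the build mm10, and the labels name Cell Ranger 8.0.1. The labels state medians of 5333 and 5398 genes per cell; the same numbers of top barcodes in the deposited counts gave 3234 and 2848, so these counts are not the ones behind that statistic.

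Barcodes with at least 2500 UMIs, at least 1000 genes and at most 10% mitochondrial UMIs were kept. UMIs were summed per library, class or cluster and scaled to 1000000 (CPM). Ratios carry a pseudocount of 0.5 UMI and exact conditional intervals, levels exact Poisson intervals, and shares exact binomial (Clopper-Pearson) intervals, all at 95%. With 1 library per group no test was possible. Clusters came from scanpy 1.11.5 (Leiden, resolution 0.5, 2000 variable genes, 30 components, 15 neighbours), without tubulin, Sp5, Sp8, cell cycle, mitochondrial, ribosomal, histone, Y, chromosome 6 or chromosome 11 genes. The class naming rule, the chromosome exclusions and the neuron marker split were set after seeing the data. The members and lists were chosen with earlier results of these data known. Doublets were kept; the alternative removed the highest Scrublet scores at 0.8% per 1000 cells (606 and 897 cells).

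Named genes were the 10 members, Sp5 and Sp8 as a label check, the other tubulin genes, and in each list at most 3 genes with the largest library ratio and 3 with the largest neural-like over streak-like ratio at a mean CPM of at least 10, plus 3 likeness genes each for Tubb3, Tuba1a, Tubb2a, Tubb2b and Tubb6. Sequences come from GENCODE M21 transcripts and, for promoters, RefSeq. The ends of the α coding sequences are not reported here. Alternatives were other mitochondrial, UMI and doublet filters, TMM (edgeR 4.0.16) and DESeq2 1.42.0 scaling, equal weights, chromosome 11, other fold and level limits, other pools and other class definitions. The ratio and intervals were run on simulated Poisson and binomial counts, the model that the intervals assume. These counts held no spread between cells or between replicate libraries, so the run does not bear on such spread.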

Additional observations from a re-analysis of the deposited data

How the results depend on the processing

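No paired analysis was possible because each group has 1 library, whose replicate number pairs nothing and which cannot be left out. Between the libraries the count of tubulin genes called higher fell from 1 to 0 among cells not low in chromosome 11, with clusters at equal weight, with each cell at the same weight and with a fold limit of 0.5; the count called lower was 0 in all settings run. The α to β ratio was 0.473 and 0.461 with pools made of the listed members only. The α pool's library log2 ratio of 0.01 moved to 0.0229 (chromosome 11 not low), 0.0378 (TMM), 0.0257 (DESeq2) and 0.0292 (clusters at equal weight), and the β pool's ratio to 0.0617, 0.0768 and 0.0646 under the first 3. Classes from marker counts moved counts of members past the class limit: neural-like over streak-like lower from 2 to 1 in both libraries, naive-like over streak-like from 2 lower to 0 in both and from 1 higher to 0 in the library labelled double mutant, naive-like over neural-like from 2 higher to 1 in the library labelled WT and from 5 lower to 3 in the other. They also changed the sign of naive-like over streak-like Tuba1a (0.0676 and 0.0115). In the library labelled double mutant the sign of naive-like over neural-like Tubb6 (0.0929) and Tubg1 (0.12) changed too. These values all lay inside the limit. At a resolution of 1.0 no cluster met the neural-like rule, so no neural-like value exists there. A cluster of 277 and 288 cells, with Pou3f2, Ebf3, Insm1 and Sox1 among its leading genes, was present but missed the rule. At this resolution naive-like over streak-like had 1 higher in the library labelled WT, and 2 higher and 1 lower in the other. With cells not low in chromosome 11 the library labelled double mutant had 1 lower for neural-like over streak-like, and 2 higher and 1 lower for naive-like over streak-like; with doublets removed the last count was also 1. Without the neural-like cells, an alternative added after seeing the data, the Tubb3 ratio over the mitotic groups changed sign to 0.27 in the library labelled WT. Of 442 values of single genes, 365 stayed within the counting interval, 72 moved out of it and 5 that had passed the limit changed sign. Beyond the classes from marker counts the cause was not tested. Depth limits the small groups: Tubb2a, Tubb3, Tubb6 and Tubg1 had 6 to 39 UMIs in naive-like cells, and Tubb3 had 6 and 4 in cluster 8.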
